A study of Mus musculus with 4 samples.

Results

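Atoh1 and Egfp, 2 of the 32289 genes counted in mouse inner ear organoids, were followed cell by cell: Atoh1 encodes a basic helix-loop-helix transcription factor, and Egfp is the transcript of the nuclear GFP reporter carried by the Atoh1-nGFP embryonic stem cell line. Both were taken by their symbols in the gene lists of the deposited count tables. Organoids were dissociated, sorted on GFP and loaded on a 10x Genomics chip. Single-cell libraries came from day 16, day 20 and day 21 in vitro, the last split into a GFP high and a GFP low library, so each of the 4 groups is 1 library. All 4 come from the same reporter line, listed as otic lineage, and no line without the reporter was analysed here. The gate used for sorting at day 16 and day 20 is not given in the sources used here, and the labels speak of nuclei in one place and of cells in another. Since a group is 1 library, no test across samples could be made and no p-value was computed, and the 95% intervals cover counting error only.

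Atoh1 is required to form the mechanosensory hair cells of the inner ear, and it also acts in Merkel cells of the skin, in granule neurons of the cerebellum and in the dorsal spinal cord and hindbrain. In the developing sensory epithelium Notch signalling keeps Atoh1 low in the cells that become supporting cells, through Hes and Hey repressors, and Atoh1 sustains its own transcription through an enhancer downstream of the gene. In hair cells its expression is transient: it falls as the cells mature. A reporter made from an Atoh1 enhancer reads the activity of that enhancer, and its transcript and protein need not follow the Atoh1 transcript in time.

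Atoh1 (ENSMUSG00000073043) lies on chromosome 6 at 64729125-64731245 on the plus strand of GRCm38 in GENCODE M21, as a protein-coding gene of 1 exon and 2121 bases. No other annotated gene lay within 20000 bases of it, so its UMIs were not shared with an overlapping gene. The region at its start is shown because the Notch effectors of the Hes and Hey families, repressors of Atoh1, are known to bind CACGCG and CACNAG, and the 3 starts of Dll3 and Hes6 are shown because these genes were higher in Atoh1-positive hair cells in 3 libraries. Each sequence is RefSeq's on GRCm38.p6 and runs 5′ to 3′ along the gene's strand, from 250 bases before to 50 bases after the start, with matches to CANNTG (an E-box, the class of site bound by Atoh1), CACGCG and CACNAG on either strand in capitals.
Atoh1 (chr6:64728875-64729174, plus strand): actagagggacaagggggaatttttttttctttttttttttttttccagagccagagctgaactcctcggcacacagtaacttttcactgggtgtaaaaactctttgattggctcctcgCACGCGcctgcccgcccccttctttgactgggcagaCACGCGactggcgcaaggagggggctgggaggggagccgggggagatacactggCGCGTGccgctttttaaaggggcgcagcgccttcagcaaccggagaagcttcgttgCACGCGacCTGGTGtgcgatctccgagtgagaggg
Dll3 (chr7:28301736-28302035, minus strand): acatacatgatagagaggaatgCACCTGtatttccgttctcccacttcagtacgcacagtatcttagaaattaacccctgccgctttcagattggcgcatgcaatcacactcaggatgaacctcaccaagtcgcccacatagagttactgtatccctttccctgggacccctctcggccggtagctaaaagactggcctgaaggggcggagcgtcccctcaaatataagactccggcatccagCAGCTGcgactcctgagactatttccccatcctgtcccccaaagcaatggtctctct
Hes6, first start listed (chr1:91413989-91414288, minus strand): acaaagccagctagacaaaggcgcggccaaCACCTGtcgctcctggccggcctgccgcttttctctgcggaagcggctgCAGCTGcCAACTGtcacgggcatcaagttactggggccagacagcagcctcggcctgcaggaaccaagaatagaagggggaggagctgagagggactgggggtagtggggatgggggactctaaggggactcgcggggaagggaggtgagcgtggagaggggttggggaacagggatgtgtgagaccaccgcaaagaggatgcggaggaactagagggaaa
Hes6, other start (chr1:91413173-91413472, minus strand): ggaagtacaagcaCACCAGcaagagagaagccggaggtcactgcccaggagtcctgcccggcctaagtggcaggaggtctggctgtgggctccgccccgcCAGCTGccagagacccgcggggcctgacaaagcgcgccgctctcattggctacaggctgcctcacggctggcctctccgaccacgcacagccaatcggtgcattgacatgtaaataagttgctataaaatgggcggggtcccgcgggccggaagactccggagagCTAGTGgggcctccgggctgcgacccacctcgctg
The Atoh1 window held 4 matches to CACGCG, 1 to CACNAG and 0 to CANNTG. At least 1 CACGCG was present in 9.27% of 32851 promoter windows of this length, and 4 or more in 0.0761% of them. The Dll3 window held 2 E-boxes, and the Hes6 windows held 3 and 1. An E-box was present in 72.3% of all windows and CACNAG in 42.5%. A match is a description of these letters only. Mfng is named here without a sequence.

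The libraries held 3376 (day 16), 4348 (day 20), 3435 (GFP high) and 3686 (GFP low) cells after filters, with median totals of 15232, 8834, 28858 and 22214 UMIs per cell. GFP high and GFP low shared 8 kept cell barcodes, and the other pairs of libraries shared between 1 and 4. Cells were sorted by the number of fixed marker genes with at least 1 UMI among 3000 UMIs drawn from each cell, without use of Atoh1 or Egfp. The hair cell gate (3 of 11 markers such as Myo7a, Otof and Xirp2) held 116, 117, 2099 and 744 cells, and the Merkel gate (4 of 7 markers such as Krt20, Krt8 and Piezo2) held 396, 682, 60 and 133. Cells that opened both the Merkel and the neuron gate were counted in the Merkel gate. A gate named after Car3 and T held 107 cells at day 20 and 13 and 20 in GFP high and GFP low; it was laid out with notochord markers, but Noto was at 0, so it is called by its leading genes. All cells together had 128 CPM of Atoh1 (UMIs of the gene scaled by all UMIs of the summed cells) at day 16, 155 at day 20, 144 in the GFP high library and 34.0 in GFP low, and 3246, 2619, 4862 and 1313 CPM of Egfp. The level of Egfp in GFP high and GFP low is what the sort set, and is given as a description.

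The Merkel gate had the highest Atoh1 of all gates in each of the 4 libraries, and the hair cell gate came next among the gates shown at day 16, day 20 and in the GFP high library. In GFP low some values lay above the 27.5 CPM (25.2 to 30.0) of hair cells. The supporting cell gate had 31.1 CPM (27.8 to 34.7) and cells that opened no gate 32.7 CPM (29.5 to 36.3). Both intervals overlapped that of hair cells. The 17 cells that opened both the hair and the supporting cell gate had 60.3 CPM (42.0 to 83.9). Of their 35 Atoh1 UMIs, 22 lay in 1 cell. In GFP high, cells that opened no gate had 240 CPM and the 92 cells that opened both the hair and the supporting cell gate 184 CPM, above the 152 CPM of hair cells. In the Merkel gate Atoh1 was 634 CPM at day 16 (interval 615 to 653), 802 at day 20 (780 to 824), 726 in GFP high (680 to 775) and 756 in GFP low (719 to 793). These 4 levels lay within a narrow band, whichever way the library had been sorted. In the hair cell gate Atoh1 was 267 CPM at day 16 (251 to 284), 213 at day 20 (194 to 234), 152 in GFP high (149 to 155) and 27.5 in GFP low (25.2 to 30.0). GFP low hair cells thus stood well below those of the other libraries. The ratio of Merkel gate to hair cell gate was 2.37 at day 16, 3.76 at day 20, 4.77 in the GFP high library and 27.5 in GFP low, past the rule used for every ratio here (at least 2 either way, with an interval that excludes 1) in 4 of 4 libraries. That rule placed 10.6% of 7365 genes higher in the Merkel gate at day 16, 12.3% of 6993 at day 20, 14.2% of 8061 in GFP high and 15% of 7920 in GFP low, counting genes that reached 20 CPM in at least 1 of the gates. Merkel gate cells held 59.8% of all Atoh1 UMIs at day 16, 78.1% at day 20, 5.84% of those in GFP high and 51.8% of those in GFP low.

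Levels in the other gates were as follows. Supporting cell gate cells (markers such as Otog and Tectb) had 94.4 CPM in GFP high, from 224 cells, and 31.1 CPM in GFP low, from 484 cells. The 13 such cells at day 16 had 64.6 CPM and the 13 at day 20 had 37.4 CPM, with intervals of 40.0 to 98.7 and 15.1 to 77.1. These levels rested mostly on 1 cell each, which held 17 of the 21 Atoh1 UMIs at day 16 and 6 of the 7 at day 20. The neuron gate had 11.9 CPM at day 16, 21.8 at day 20, 44.9 in the GFP high library and 6.32 in GFP low. The mesenchyme gate had 6.1, 1.92, 1.85 and 4.0 CPM, and the 1.85 of GFP high rested on 2 UMIs. The Car3 and T gate had 0 Atoh1 UMIs in each of the 3 libraries in which it held 10 or more cells, with an upper limit of 3.72 CPM at day 20. RNA carried over between droplets was estimated by taking all Ccer2 of a gate as RNA of Merkel gate cells and all hair cell marker UMIs as RNA of hair cell gate cells. Where cells of a gate make these transcripts themselves, the estimate is too high, and this was not tested. The estimate gave 21.5 CPM of Atoh1 for neurons at day 20 and 2.27 CPM for mesenchyme at day 20, beside the measured 21.8 and 1.92 CPM. It lay within the counting interval of each summed level (18.6 to 25.5 and 1.33 to 2.69 CPM). At full depth 6.055% of these neurons had an Atoh1 UMI, with up to 13 of the 161 UMIs in 1 cell. Whether these neurons make Atoh1 was not tested. At day 16 the measured levels lay above the estimate, with 11.9 CPM (10.4 to 13.5) beside 8.27 in neurons and 6.1 CPM (4.76 to 7.71) beside 1.64 in mesenchyme. In GFP low mesenchyme had 4.0 CPM (1.92 to 7.36) beside 0.362, but 9 of its 10 Atoh1 UMIs lay in 1 cell. For supporting cell gate cells it gave 9.20 CPM in GFP high and 0.952 CPM in GFP low, well below the measured levels.

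**Figure D1:**
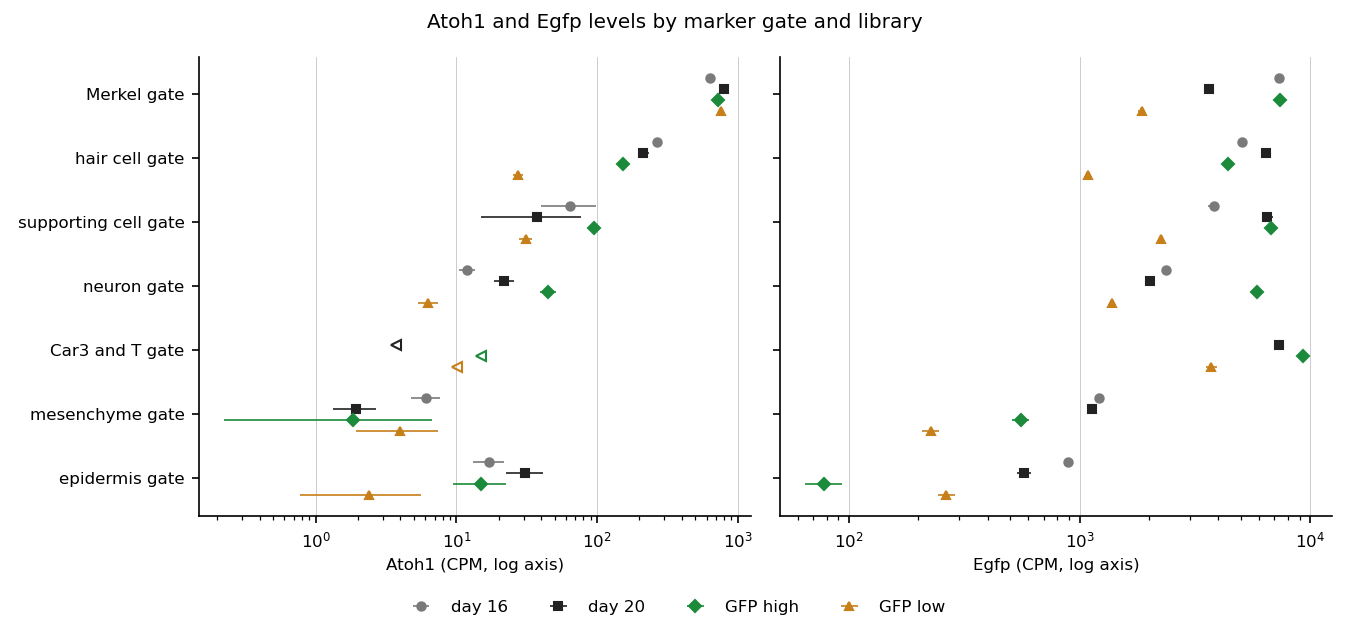
Atoh1 (left) and Egfp (right) in CPM on log axes for each marker gate, by library, with exact Poisson intervals and open arrowheads for the upper limit of gates with 0 Atoh1 UMIs. Merkel gate cells lie between 634 and 802 CPM of Atoh1 in all 4 libraries, while the Car3 and T gate joins 0 Atoh1 UMIs with 7309 CPM of Egfp at day 20.

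Egfp followed another order of cell types than Atoh1. At day 20 the Car3 and T gate had 7309 CPM of Egfp (7142 to 7479), the hair cell gate 6406 and the supporting cell gate 6518. In the last, 1 of 13 cells held 549 of the 1219 Egfp UMIs. The Merkel gate had 3640, neurons 2018, mesenchyme 1134 and epidermis 575 CPM. At day 16 the Merkel gate had 7349 CPM, the hair cell gate 5081, neurons 2377, mesenchyme 1212 and epidermis 887 CPM. Mesenchyme at day 20 would hold 14.7 CPM of Egfp from carried-over Merkel and hair cell RNA by the estimate above, and held 1134. Neurons at day 20 would hold 124 CPM and held 2018, and the Car3 and T gate would hold 5.47 and held 7309. In the GFP high library the epidermis gate went the other way, with 78.0 CPM measured beside 156 CPM estimated.

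The number of Egfp UMIs per Atoh1 UMI put these differences in 1 figure per cell type. The 2 transcripts differ in length and in how well they are captured, so the ratio is compared only between cells. It was 11.6 in the Merkel gate at day 16 (11.3 to 12.0), 4.54 at day 20, 10.2 in the GFP high library and 2.46 in GFP low. In the hair cell gate it was 19.0, 30.0, 29.0 and 39.5 in the same order of libraries. Each library thus had more Egfp per Atoh1 in hair cells than in the Merkel gate. Supporting cell gate cells had 71.5 in GFP high and 72.5 in GFP low, 2 values whose intervals overlap (65.8 to 77.7 and 64.9 to 81.2). This follows from each transcript differing by about the same factor between these libraries. Neurons had 199.9 at day 16, and 131 and 219 in the GFP high and GFP low libraries, and mesenchyme had 199 at day 16. The estimate above gave 8.27 CPM of carried-over Atoh1 for neurons at day 16, beside 11.9 CPM measured. For neurons it gave 28.5 beside 44.9 CPM in GFP high and 3.89 beside 6.32 CPM in GFP low. For mesenchyme at day 16 it gave 1.64 beside 6.1 CPM. The ratios were not corrected for carried-over RNA. No ratio is given for these gates at day 20, where their summed Atoh1 was at the level of the estimate.

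The sort on GFP separated Atoh1 in hair cells and left it nearly level in the Merkel gate. Hair cell gate Atoh1 was 152 CPM in GFP high and 27.5 CPM in GFP low, a ratio of 5.54 (5.07 to 6.06), and Egfp was 4413 and 1087 CPM, a ratio of 4.06. Merkel gate Atoh1 was 726 CPM in GFP high and 756 CPM in GFP low, a ratio of 0.962 (0.886 to 1.04), while Egfp was 7430 and 1858 CPM, a ratio of 4.0. The Merkel gate cells of these libraries differed in other markers: the neuron markers had a median sum of 3478 CPM over the 60 cells of GFP high and 1016 CPM over the 133 cells of GFP low. The Merkel gate takes in cells that also opened the neuron gate. Of the 70 cells that opened the Merkel gate in GFP high 35 were at its threshold, and of the 151 in GFP low 49. Their part in the Atoh1 ratio was not tested. Of the 7251 genes tested in the hair cell gate 3.41% were higher in GFP high by the same rule, and of the 7043 in the Merkel gate 4.37%. Supporting cell gate cells had ratios of 3.04 for Atoh1 and 2.99 for Egfp, and neurons 7.10 and 4.25. By the estimate above, neurons in GFP high would hold 28.5 CPM of Atoh1 as carried-over RNA, beside 44.9 measured. Over all cells the ratios were 4.24 for Atoh1 and 3.70 for Egfp, where 7.10% of 7913 genes were higher. As means of per-cell CPM they were 2.82 for Atoh1 and 3.02 for Egfp, in the opposite order.

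Between day 20 and day 16 the ratios of the 2 transcripts lay on opposite sides of 1 in the Merkel gate and in the hair cell gate, and the sides were swapped between these gates. In the Merkel gate Atoh1 was 802 CPM at day 20 and 634 CPM at day 16, a ratio of 1.26 (1.21 to 1.32), and Egfp was 3640 and 7349 CPM, a ratio of 0.495 (0.488 to 0.503). In the hair cell gate Atoh1 was 213 and 267 CPM, a ratio of 0.799 (0.713 to 0.894), and Egfp was 6406 and 5081 CPM, a ratio of 1.26 (1.23 to 1.29). Of these 4 ratios, that of Egfp in the Merkel gate passed the rule, as did 5.89% of 6196 genes there in the same direction. In the hair cell gate 12.2% of 6980 genes passed in either direction, and over all cells 11.5% of 7196. The Merkel gate ratio of Egfp lay at the edge of the rule, and was 0.553 with edgeR's TMM factors, 0.509 with doublets kept and 0.506 with 1 marker fewer per gate. Over all cells Atoh1 was 155 CPM at day 20 and 128 CPM at day 16, a ratio of 1.21, and Egfp was 2619 and 3246 CPM, a ratio of 0.807. The day 20 library was the shallowest, and what the sort kept at each day is not known.

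**Figure D2:**
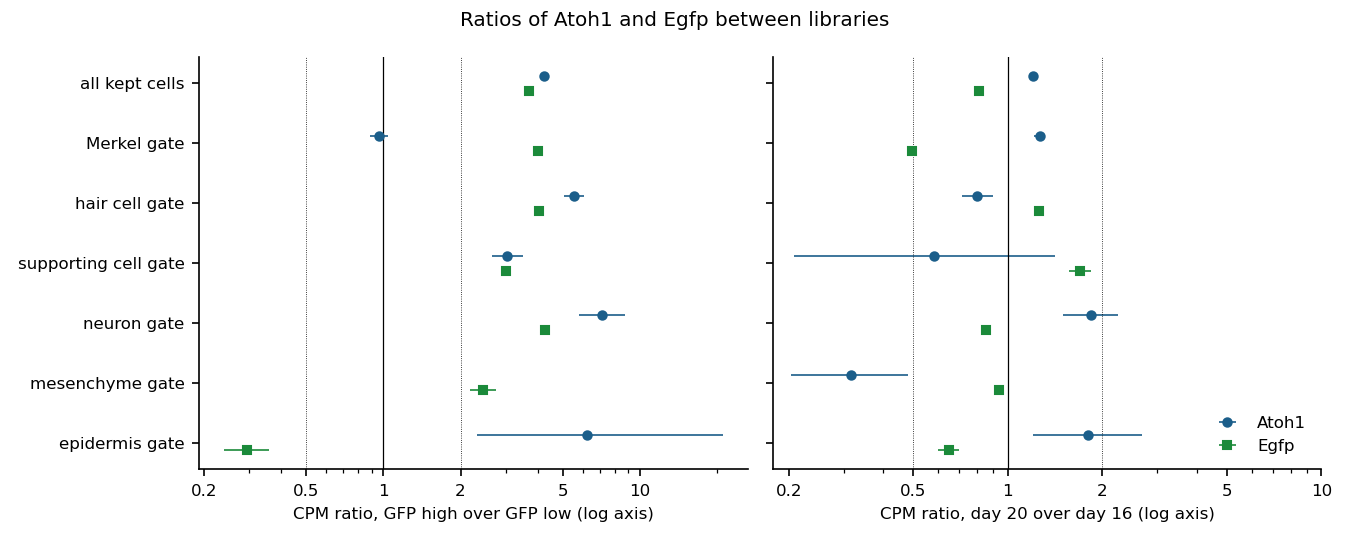
Ratio of CPM between libraries for Atoh1 (circles) and Egfp (squares), GFP high over GFP low on the left and day 20 over day 16 on the right, on log axes with exact intervals and dotted lines at 0.5 and 2. In the Merkel gate Atoh1 stays at 0.962 between the sorted libraries while Egfp differs 4.0-fold, and between days the order of the symbols is swapped between the Merkel and hair cell gates.

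Within the hair cell gate, the cells with the most Egfp held more Atoh1 than those with the least in 3 of 4 libraries. Cells were ranked by Egfp CPM and cut into 4 equal groups, with 524 or 525 cells each in GFP high. From the lowest to the highest Egfp these had 23.8, 46.0, 181 and 324 CPM of Atoh1, so the gain lay in the upper groups. In GFP low the same groups of 186 cells had 17.8, 8.22, 13.9 and 75 CPM. At day 20, with 29 or 30 cells a group, they had 112, 34.4, 326 and 332 CPM. Day 16 stood apart, with 259, 298, 251 and 259 CPM in groups of 29 cells whose Egfp ran between 1156 and 11190 CPM. In the Merkel gate the range was narrow at day 16, without a steady order (592, 667, 650 and 621 CPM). At day 20 it was narrow too, with more Atoh1 in each higher group (677, 794, 848 and 871 CPM). The lowest and highest groups of day 20 had separate intervals (635 to 720 and 828 to 916). Merkel gate cells of GFP low had 469 CPM in the lowest group and 837, 881 and 846 in the others. The 15 cells per group in GFP high had 688, 506, 792 and 918 CPM. Supporting cell gate cells of GFP high had 30.3, 46.2, 94.2 and 221 CPM, with more Atoh1 in each higher group. In GFP low the same gate, with 121 cells per group, had 29.1, 15.1, 31.9 and 55.4 CPM, without a steady order.

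**Figure D3:**
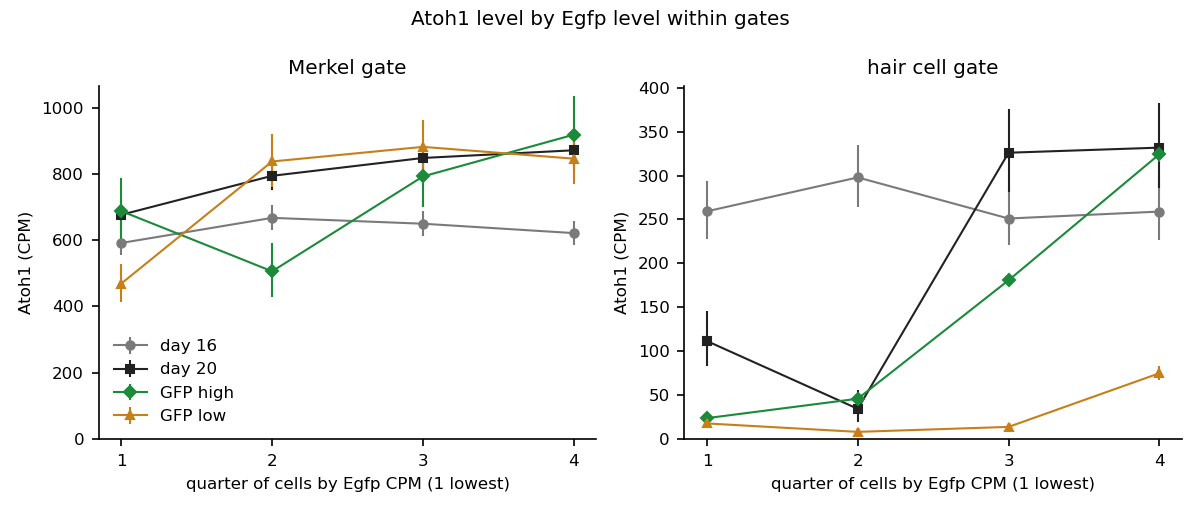
Atoh1 in CPM in 4 groups of cells ranked by Egfp, in the Merkel gate (left) and the hair cell gate (right), by library, with exact Poisson intervals. Hair cells of GFP high run between 23.8 and 324 CPM, hair cells of day 16 stay between 251 and 298 CPM, and Merkel gate cells lie above 460 CPM in each group.

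Cells with reporter RNA and no Atoh1 UMI were common, and their share depended on cell type and on depth. At 3000 UMIs per cell, Egfp was found without Atoh1 in 52.6% of hair cell gate cells at day 16 (43.1 to 61.9), 67.5% at day 20, 69.8% in the GFP high library and 79.2% in GFP low. In the Merkel gate the share was 17.9%, 14.7%, 11.7% and 10.5%. A cell near the mean level can miss Atoh1 by sampling alone: if all hair cell gate cells of a library had 1 common level, 51.1% at day 16, 62.5% at day 20, 67.2% in the GFP high library and 94.0% in GFP low would show no Atoh1 UMI, and 55.2%, 70.9%, 74.5% and 95.6% showed none. With every UMI counted, Egfp without Atoh1 was left in 8.62% of hair cell gate cells at day 16, 41.9% at day 20, 38.5% of those of GFP high and 76.1% of those of GFP low. In the Merkel gate it was then left in 1.01%, 2.49%, 1.67% and 0.752%. Hair cells of day 20 and day 21 thus included many cells in which Atoh1 was not found at full depth, with median totals of 17936, 30182 and 25338 UMIs, against 33500 at day 16.

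The Car3 and T gate was made up of such cells almost entirely. At day 20, 105 of its 107 cells (98.1%, 93.4 to 99.8) had Egfp and none had an Atoh1 UMI at this depth, which limits the share of cells with a UMI to 2.80% and does not limit the share that express Atoh1 at a low level. In GFP high 13 of 13 and in GFP low 18 of 20 had Egfp, again with no Atoh1. Its cells at day 20 had 1114 CPM of T, 6119 of Car3, 92.9 of Shh and 15.1 of Foxa2. T is the Brachyury transcription factor of notochord and mesoderm, Shh the secreted ligand of floor plate and notochord, and Car3 a carbonic anhydrase. Of cells thinned in the same way, Egfp alone was found in 52.4% of mesenchyme gate cells at day 16 and 73.5% at day 20, in 15.2% of the 46 in GFP high and in 22.3% of the 112 in GFP low. Egfp alone was found in 69.6% of neurons at day 16, 68.3% at day 20, 85.1% in the GFP high library and 53.0% in GFP low. Epidermis gate cells, set beside them as a type with little Egfp, had Egfp alone in 20.3%, 35.3%, 2.22% and 14.9%, at median totals of 20945, 13038, 32680 and 30492 UMIs. The intervals of mesenchyme and epidermis overlapped in GFP high (6.34 to 28.9 and 0.0563 to 11.8) and in GFP low (15 to 31.2 and 7.4 to 25.7), so no difference between these types is read from the shares there. The Egfp level of mesenchyme was 555 CPM in GFP high and 226 CPM in GFP low, beside 34.2 and 7.26 CPM from carried-over RNA.

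Counted over all cells of 3000 UMIs or more, Egfp without Atoh1 marked 1593 cells at day 16, 2295 at day 20, 2281 in the GFP high library and 2197 in GFP low, against 504, 697, 805 and 223 cells with both. Neurons made up 48.7% of the first kind at day 16 and mesenchyme 58.7% at day 20. Hair cells made up 64.2% in GFP high and 26.8% in GFP low. Of the cells with both, the Merkel gate held 63.9% at day 16, 79.2% at day 20, 6.58% in the GFP high library and 47.1% in GFP low. Atoh1 without Egfp was rare, with 9, 27, 7 and 22 cells.

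**Figure D4:**
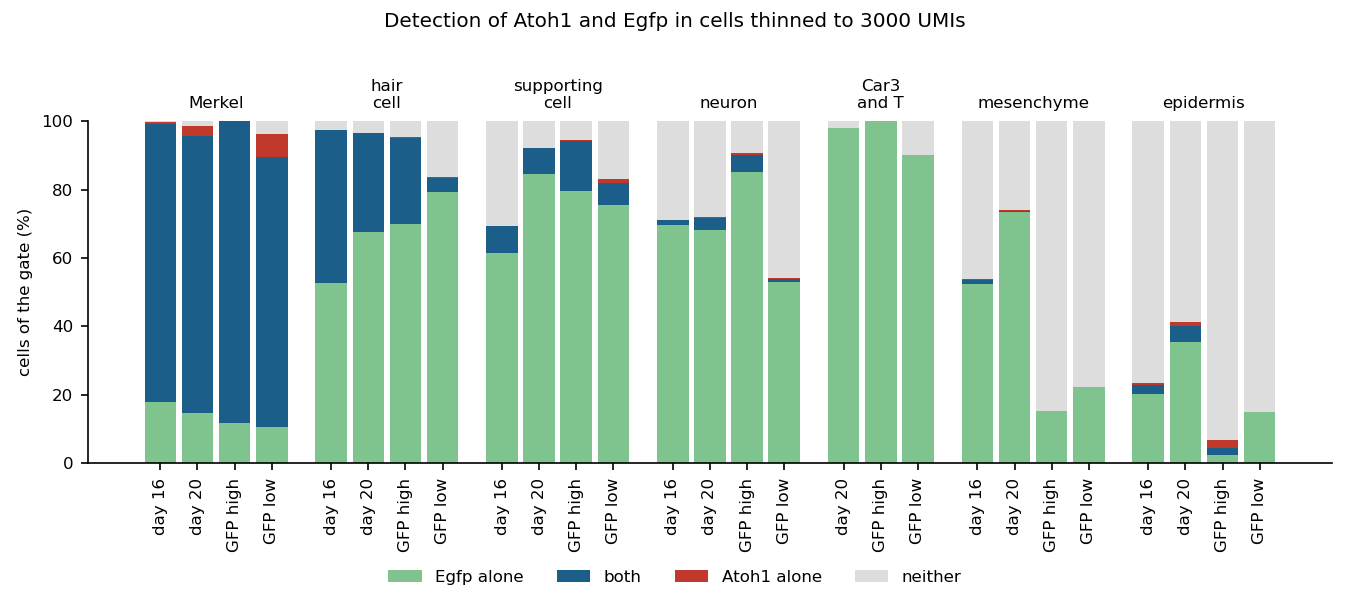
Share of cells in each gate and library with Egfp alone, both transcripts, Atoh1 alone or neither, each cell thinned to 3000 UMIs, for gates with 10 or more cells. Both transcripts together fill most of the Merkel gate, and Egfp alone fills the Car3 and T gate (98.1% at day 20) and most of the hair cell gate in the GFP high library (69.8%).

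Neurons were examined further because Atoh1-expressing progenitors give rise to neurons that express Lhx2, Lhx9, Barhl1 or Barhl2, LIM and BarH homeobox factors. Egfp was 3206 CPM in the 345 neurons with a UMI of these genes and 1911 CPM in the 769 without at day 16. Neurons with such a UMI had 3218 CPM at day 20 and 7366 CPM in GFP high, against 1747 and 4828 CPM in those without. In GFP low the order was turned, with 862 CPM in neurons with such a UMI and 1514 CPM in those without. Atoh1 was 17.9, 28.8, 59.3 and 13.0 CPM in neurons with a UMI from day 16 to GFP low, against 8.51, 20.3, 34.7 and 4.62 CPM in those without. No ratio of Egfp reached 2, so no Egfp difference passed the size rule. Atoh1 differed by more than 2-fold at day 16 and in GFP low, but not at day 20 or in GFP high. Its intervals were 14.96 to 21.26 and 6.994 to 10.26 at day 16, and 10.04 to 16.64 and 3.718 to 5.684 in GFP low. Carried-over RNA was not subtracted. Among thinned cells, Egfp was found in 68.1%, 71.3%, 95.35% and 61.9% of neurons with such a UMI, from day 16 to GFP low. In those without it was found in 72.4%, 71.8%, 86.8% and 52.3%, with overlapping intervals in each library.

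Within the hair cell gate, cells with an Atoh1 UMI among 3000 were set against cells with none, to see which genes moved with Atoh1. The sets held 52 and 64 cells at day 16, 34 and 83 at day 20, 536 and 1563 in GFP high and 33 and 711 in GFP low. Of 6812 genes tested in at least 3 libraries, 96 (1.41%) were higher and 91 (1.34%) lower in Atoh1-positive cells in 3 or 4 of them. Since Atoh1 detection made the sets, Atoh1 itself is no result. Egfp was not used, and was 5848, 9319, 7714 and 2616 CPM in Atoh1-positive cells from day 16 to GFP low, against 4409, 4790, 3130 and 1026 CPM in Atoh1-zero cells. It was higher in each library, with ratios of 1.33, 1.95, 2.46 and 2.55, of which those of GFP high and GFP low passed the rule.

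Of the Notch ligands and their modifiers, Dll3 and Mfng were higher in Atoh1-positive hair cells in 3 of 4 libraries. Dll3, a Delta family member that blocks Notch in the cell that makes it, had 127 CPM in Atoh1-positive and 40.4 CPM in Atoh1-zero hair cells at day 20. In GFP high it had 105 CPM in Atoh1-positive and 26.5 CPM in Atoh1-zero cells, and in GFP low 84.4 CPM in Atoh1-positive and 8.59 CPM in Atoh1-zero cells. At day 16 it had 118 CPM in Atoh1-positive and 93.7 CPM in Atoh1-zero cells, and the ratio of 1.26 did not pass. Mfng, the glycosyltransferase Manic fringe that modifies Notch, had ratios of 2.98, 2.83 and 8.42 at day 20, in the GFP high library and in GFP low, and 1.18 at day 16. Of the 7 genes on this list, 5 or 6 were tested in each library: 2 of 6 were higher at day 20, 2 of 5 in GFP high, and 3 of 5 in GFP low with the ligand Jag2 (2.80), while 0 of 5 passed at day 16. Of all genes tested, 0.688% were higher and 1.62% lower at day 16, 3.66% and 5.85% at day 20, 3.28% and 3.88% in GFP high, and 6.28% and 5.54% in GFP low. Dll1, the main Delta ligand of nascent hair cells, passed in none.

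Genes of the Atoh1 programme did not move as a block. Hes6, a basic helix-loop-helix factor that antagonises Hes1, had 393 CPM in Atoh1-positive and 190 CPM in Atoh1-zero cells at day 20. Atoh1-positive cells had 265 CPM and Atoh1-zero cells 103 CPM in GFP high, and Atoh1-positive cells had 250.4 CPM and Atoh1-zero cells 67.3 CPM in GFP low. At day 16 Atoh1-positive cells had 426 CPM and Atoh1-zero cells 402 CPM, without passing. Its day 20 call was lost with 1 marker fewer per gate (ratio 1.70). Rasd2, a small GTPase, and Anxa4, an annexin, were higher in GFP high (2.42 and 2.25) and in GFP low (6.96 and 4.47). Nhlh1, another basic helix-loop-helix factor, was higher in the same libraries (2.26 and 7.67), and Insm1, Lhx3 and Rbm24 in GFP low (4.64, 2.50 and 2.01). The Rbm24 ratio was 1.98 with 1 marker more and 1.80 with 1 marker fewer per gate. Pou4f3, a POU factor that keeps hair cells alive and a direct target of Atoh1, passed in no library. Atoh1-positive cells had 772, 559.8, 697 and 567 CPM of it from day 16 to GFP low, and Atoh1-zero cells 739, 595, 544 and 445 CPM. Gfi1, the zinc-finger repressor downstream of Pou4f3, was lower at day 20, with 313 CPM in Atoh1-positive and 648 CPM in Atoh1-zero cells (ratio 0.483), and had ratios of 0.728, 0.602 and 0.803 in the other libraries. The day 20 ratio was 0.505 with cells split on all UMIs and 0.571 with 1 marker fewer per gate, outside the rule. Of the 13 genes listed 13 were tested, and 0, 1, 4 and 7 were higher from day 16 to GFP low, with medians of -0.06, 0.27, 0.64 and 1.0 on the log2 scale of CPM + 1, beside -0.03, -0.08, 0.00 and -0.02 over all genes tested.

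The repressors said less. Hes1, Hes5 and Hey2 were under 20 CPM in both sets in all 4 libraries and were not tested. Id2, an inhibitor of basic helix-loop-helix factors, was higher in GFP high, with 38.1 CPM in Atoh1-positive and 16.7 CPM in Atoh1-zero cells (ratio 2.28). In GFP low it was higher too, with 23.5 CPM in Atoh1-positive cells, from 17 UMIs, and 4.96 CPM in Atoh1-zero cells. Id1 and Id3 were higher in GFP low (ratios 5.11 and 12.6), from 22 and 17 UMIs in Atoh1-positive cells. With doublets kept, the Id2 ratio in GFP high was 1.83, outside the rule, and the GFP low ratios were 2.43 for Id2, 3.17 for Id1 and 5.53 for Id3. Of upstream factors, the otic transcription factor Pax2 was higher in GFP high (186 CPM in Atoh1-positive and 89.3 CPM in Atoh1-zero cells) and in GFP low (ratio 3.24), while Sox2, Eya1 and Ctnnb1 passed in none. The E-proteins Tcf3, Tcf4 and Tcf12, which pair with Atoh1, and the ubiquitin ligase Huwe1 passed in none of the libraries in which they were tested (Tcf12 was under 20 CPM at day 20). Of related basic helix-loop-helix factors, Neurod1 and Nhlh2, both known from differentiating neurons, were lower in Atoh1-positive hair cells at day 16 (ratios 0.135 and 0.446), the only listed genes called in that library, and were under 20 CPM in the others. Lhx2 was higher in GFP low (7.49), from 17 UMIs in Atoh1-positive cells.

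**Figure D5:**
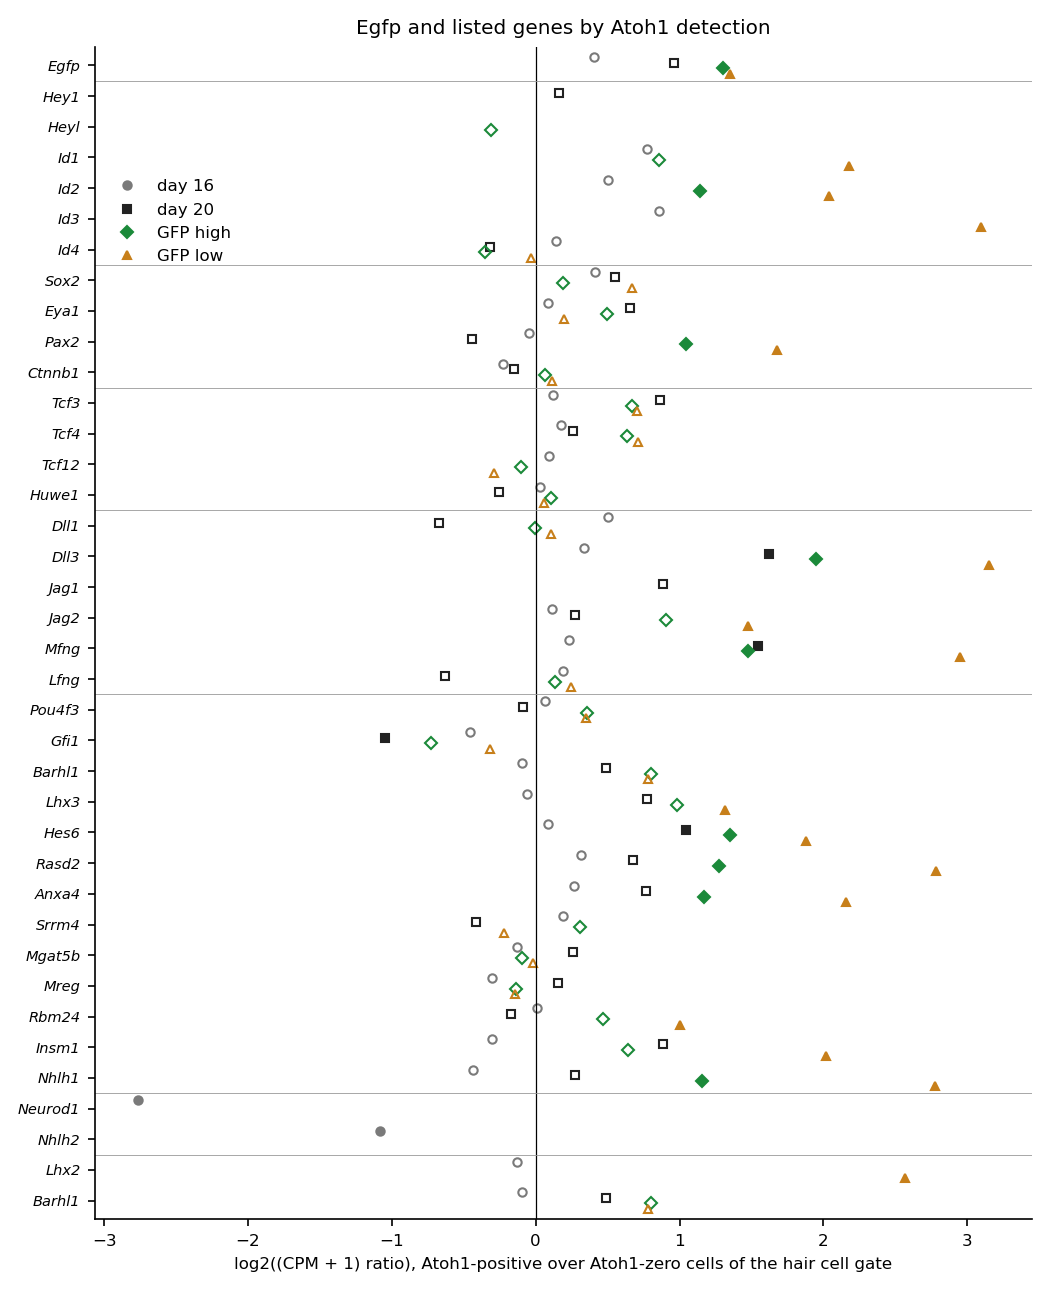
Log2 ratio of CPM + 1 in Atoh1-positive over Atoh1-zero cells of the hair cell gate, for Egfp and the listed genes reported here, by library, filled where the ratio passed the size rule; lines part the lists. Dll3, Mfng and Hes6 are filled in day 20, GFP high and GFP low, while no filled symbol of day 16 lies right of 0.

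Beyond the lists, the 10 genes with the largest median ratio among the 96 were Ecel1, Pqlc3, Lct, Hpn, S100b, Mdk, Tuba1c, Igll1, Rprm and Ccdc88b. The growth factor Mdk had 393, 416, 542 and 224 CPM in Atoh1-positive cells from day 16 to GFP low, against 149.9, 128, 91.7 and 23.5 CPM in Atoh1-zero cells. The protease Hpn had 169, 201, 214 and 198 CPM in Atoh1-positive cells, against 76.4, 41.2, 51.0 and 17.1 CPM in Atoh1-zero cells. S100b, a calcium-binding protein, and the tubulin Tuba1c were also higher in 4 of 4 libraries. On the other side, Ocm, oncomodulin, the calcium buffer of outer hair cells and of some vestibular hair cells, had 4.51, 1.35, 19.0 and 15.2 CPM in Atoh1-positive cells, against 95.7, 171, 203 and 65.7 CPM in Atoh1-zero cells. The carbonic anhydrases Car7 and Car12 were lower in 4 of 4 libraries as well. Car12 had 5.64, 28.3, 39.6 and 219 CPM in Atoh1-positive cells, against 32.6, 89.1, 269 and 696 CPM in Atoh1-zero cells. AI593442, Ighm, Ifit1, Kcnab1, Dhrs3, Nek2 and Pdzph1 completed the 10 genes with the lowest median ratio.

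Other measures differed between these sets of cells. The 11 hair cell markers that made the gate summed to less in Atoh1-positive cells in each library, with 4126, 6151, 6127 and 5694 CPM in Atoh1-positive cells and 5303, 7024, 7883 and 6773 CPM in Atoh1-zero cells. The 7 Merkel markers summed to more, with 5270, 10240, 5635 and 4008 CPM in Atoh1-positive cells and 3818, 1854, 2141 and 791 CPM in Atoh1-zero cells, where 4, 7, 3 and 1 of the 7 had a higher CPM in Atoh1-positive cells. Nearly all of that was Ccer2, at 4937, 9958, 5520 and 3898 CPM in Atoh1-positive cells and 3636, 1776, 2011 and 474 CPM in Atoh1-zero cells. The Merkel cell keratin Krt20 was at 0, 8.09, 0.217 and 0 CPM in Atoh1-positive cells. In Atoh1-zero cells it was at 0, 0.749, 2.1 and 4.02 CPM, and summed over Merkel gate cells between 109 and 221 CPM. Krt8 was at 117.2, 97.13, 33.52 and 33.2 CPM in Atoh1-positive cells, against 20.71, 7.488, 32.84 and 105.6 CPM in Atoh1-zero cells. Krt18 was at 62.0, 84.99, 40.34 and 37.35 CPM in Atoh1-positive cells, against 21.21, 11.98, 43.55 and 109.0 CPM in Atoh1-zero cells. The 7 neuron markers summed to less in Atoh1-positive cells in each library, with ratios of 0.728, 0.631, 0.632 and 0.77. The 6 nonsensory otic markers had ratios of 0.661 at day 16 and of 2.19, 1.86 and 1.83 in the other libraries. The 7 markers of neural progenitors or glia had ratios of 1.19, 0.662, 1.84 and 2.92. Mean mitochondrial shares were 3.38%, 1.71%, 4.92% and 4.29% in Atoh1-positive cells and 4.22%, 1.78%, 7.07% and 7.78% in Atoh1-zero cells. Median totals were 34882, 22664, 33591 and 22071 UMIs in Atoh1-positive cells and 33024, 16921, 29097 and 25416 UMIs in Atoh1-zero cells. The part of these differences in the gene counts was not tested. When every UMI was used to split the cells, 150 genes were higher and 40 lower, of which 68 and 29 were among those above, and the Hes6, Pax2, Lhx3, Jag2 and Rbm24 ratios of GFP low were under 2. Insm1, Lhx2, Id1, Id2 and Id3 gave no value in GFP low under that split. In GFP high the same split gave larger ratios, of 18 for Dll3, 10.4 for Id2, 6.02 for Rasd2, 5.16 for Mfng and 3.91 for Egfp.

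Among all reporter-positive cells, those without Atoh1 were set against those with both. Of 6835 genes tested in at least 3 libraries, 288 (4.21%) were higher and 176 (2.57%) lower in reporter-positive Atoh1-zero cells in 3 or 4 of them. The sets differ in cell type, as counted above, and which part of these genes follows cell type was not tested. The highest were Car3, Mab21l2, Fbln2, Col1a1, Lgals1, Stmn4, Crabp1, Mgp, Dlk1 and Syt4, with collagen and matrix genes beside genes of neurons (Stmn4, Syt4). Crabp1, a retinoic acid binding protein, had 121, 313, 40.1 and 167 CPM in Atoh1-zero cells from day 16 to GFP low, against 11.7, 23.5, 0.364 and 18.1 CPM in cells with both. Col1a1, fibrillar collagen, had 549.8, 2132, 15.3 and 47.2 CPM in Atoh1-zero cells, against 49.6, 69.0, 5.94 and 2.21 CPM in cells with both. The lowest were Defa24, Krt20, Bfsp1, Ccer2, Avil, Tac2, Hepacam2, Gsdma, Slc35d3 and Fitm1, of which Krt20 and Ccer2 are Merkel gate markers. Tac2, the precursor of neurokinin B, had 4.99, 13.8, 5.91 and 6.92 CPM in Atoh1-zero cells, against 107, 329, 57.1 and 95.1 CPM in cells with both.

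Across 27 points, each a gate of at least 50 cells in 1 library, the genes whose log2(CPM + 1) was most like that of Atoh1 were Sgpp2, Lhx3, Tmem229a, Pou4f3, Rab15, Hes6, 5033430I15Rik, Syt13, Chac2 and Selenom, out of 7523 genes at 50 CPM or more in some point. Pearson correlations ran between 0.88 and 0.94, as a description, since points of 1 library share depth and carried-over RNA. Lhx3, a LIM homeobox factor of hair cells, had r = 0.92, Pou4f3 had r = 0.92 and Hes6 had r = 0.91. Egfp ranked 407 by likeness to Atoh1, at r = 0.63. The 10 genes most like Egfp reached lower values: Ndufb1-ps 0.79, Mfap1b 0.79, BC031181 0.77, 2810001G20Rik 0.77, Nrcam 0.76, Tma7 0.76, 2810013P06Rik 0.76, 1700096K18Rik 0.76, Mfng 0.75 and Kpna4 0.75. Atoh1 ranked 161 of the 7523 genes by likeness to Egfp. By Spearman correlation 7 of the 10 genes most like Atoh1 were the same, and 3 of the 10 most like Egfp.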

How the data were processed

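Per the file headers, the deposited tables are Cell Ranger 6.1.2 matrices of raw UMI counts per gene and barcode; the submitters' processing notes name Cell Ranger 6.1.0, Seurat 4.0.6 and mm10. Neither the counting annotation nor the sequence behind the Egfp row is given in those sources. Cells with at least 1000 detected genes and at most 15% mitochondrial UMIs were kept, and doublets were removed with Scrublet in scanpy 1.11.5 (120, 205, 109 and 137 cells at 0.8% per 1000 barcodes). UMIs were summed per gate and scaled to CPM, with exact Poisson, Clopper-Pearson or conditional binomial 95% intervals. UMIs of 1 library are counted once, but cells are not replicates, so intervals cover counting error only. For detection each cell was thinned to 3000 UMIs, and 333, 557, 31 and 92 cells below that depth were not gated. Gates opened at 2 to 4 markers, a number set after the marker counts were seen; 1 marker more or fewer was an alternative. Some gates had no clear gap: in GFP high, 253 of the 473 cells that opened the supporting cell gate were at its threshold and 594 cells were 1 marker below, and at day 20, 92 of the 124 that opened the Car3 and T gate were at its threshold and 73 below. Genes needed 20 CPM in either set. The named genes were the 10 most extreme in each direction among genes called in 3 or more libraries, the 10 most like each transcript, and the lists. The members and lists were chosen with earlier results of these data known. The comparison was also run on counts simulated from summed profiles. These had no variation between cells, so that run does not cover it. Python 3.11.15, scipy 1.17.1, R 4.3.3 and edgeR 4.0.16 (TMM factors only) were used. Coordinates come from GENCODE M21 (GRCm38), where 32235 of the 32289 identifiers were found. The results of 1 listed gene are left out of the text and the plots.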

Additional observations from a re-analysis of the deposited data

Results flagged for a closer look

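Ratios of day 20 over day 16 lay on opposite sides of 1 in different cell types, and so did 1 ratio between the sorted libraries; the differences between types were not tested. Atoh1 in the hair cell gate had a day 20 over day 16 ratio of 0.799 and in the mesenchyme gate of 0.315, while 3 other gates had intervals above 1. Day 20 Atoh1 was close to the carried-over estimate in mesenchyme (1.92 beside 2.27 CPM). It was also close in 2 of those 3, neurons (21.8 beside 21.5 CPM) and epidermis (30.8 beside 30.4 CPM). The estimate lay within the counting interval of each of these summed day 20 levels. At day 16, 16 of the 70 Atoh1 UMIs of the mesenchyme gate lay in 1 cell. Egfp had a ratio of 1.26 in the hair cell gate and of 1.70 in the supporting cell gate (13 cells at each day), while 5 other gates had intervals below 1. In the supporting cell gate 549 of the 1219 Egfp UMIs of day 20 and 433 of the 1244 of day 16 lay in 1 cell each. Between GFP high and GFP low, Egfp in the epidermis gate had a ratio of 0.295 while 10 other gates had intervals above 1. In that gate 103 of the 120 Egfp UMIs of GFP high and 384 of the 551 of GFP low lay in 1 cell each.

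The count tables also hold rows for other fluorescent proteins that the comparisons do not use. Eyfp had 12 UMIs at day 16, 7 at day 20 and 21 in GFP high, above the 3 that a count of 0 allows, and 2 in GFP low. This came to between 0.0163 and 0.0640 Eyfp UMIs per 1000 Egfp UMIs. TdTomato had 0 UMIs in each library.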

How the results depend on the processing

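No paired analysis was possible because each group is 1 library. Alternatives were run for the ratios between libraries over all cells, in the hair cell gate and in the Merkel gate, and for Atoh1 between these gates; ratios of other gates were not rerun. These kept their direction and their side of the rule, with 2 exceptions. Merkel gate Atoh1 in GFP high over GFP low was 1.04 with 1 marker fewer per gate, and Merkel gate Egfp in day 20 over day 16 fell out of the rule at 0.506 with 1 marker fewer, 0.553 with TMM factors and 0.509 with doublets kept. TMM shifted all ratios of day 20 over day 16 by 0.19 (log2) over all cells and by 0.16 in the Merkel gate, and those of GFP high over GFP low by 0.13 over all cells. The cause was not tested.

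Levels over all cells moved beyond their counting interval as follows. With at least 2000 genes, day 16 had 131 CPM of Atoh1 and 3321 of Egfp, and day 20 had 165 and 2737. With at most 10% mitochondrial UMIs, GFP high had 155 and 5139, GFP low 36.2 and 1366, and day 16 had 3296 of Egfp. As a mean of per-cell CPM, day 16 had 109.5 and 2653, GFP high 136 and 4917, GFP low 48.3 and 1628, and day 20 had 2270 of Egfp. With doublets kept, Egfp was 4824 in GFP high and 1303 in GFP low.

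Shares of cells with Egfp and no Atoh1 follow depth. At 6000 UMIs they were 31.3% at day 16, 54.9% at day 20, 62.1% in the GFP high library and 85.4% in GFP low in the hair cell gate; 5.96% at day 16, 3.02% at day 20 and 4.76% in GFP low in the Merkel gate; and 58.7% at day 16 and 82.0% at day 20 in mesenchyme. With no thinning, hair cells had 8.62%, 41.9% and 38.5% at day 16, day 20 and in GFP high, the Merkel gate 1.01%, 2.49%, 1.67% and 0.752%, and mesenchyme 64.1% and 83.4%. With Egfp called at 2 UMIs, hair cells had 62.12% in GFP high and 60.1% in GFP low, and mesenchyme 41.9% and 57.9%. The Car3 and T gate had 93.0% at day 20 with 1 marker fewer.

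For genes by Atoh1 detection in hair cells, a split on unthinned counts gave 150 higher and 40 lower, and a minimum of 50 CPM gave 58 and 42. For reporter-positive cells a minimum of 50 CPM gave 102 higher and 99 lower. Spearman correlation kept 3 of the 10 genes most like Egfp. Depth limits each statement that Atoh1 was not found.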

Other observations

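Cells that opened no gate and had an Atoh1 UMI numbered 82 at day 16, 68 at day 20, 100 in the GFP high library and 36 in GFP low. Set against the other cells of their library with at least 3000 UMIs, their leading genes included Hsd11b2, the enzyme that inactivates glucocorticoids, with 157 CPM in these cells and 8.91 CPM in the others at day 20, and 177 and 12.3 CPM in GFP high. S100b had 67.5 and 9.68 CPM at day 20 and 499.7 and 108 CPM in GFP high. Gpx2, a glutathione peroxidase, led at day 16 with 424 and 35.7 CPM. In GFP low the leading gene was Insl6, an insulin-like peptide, with 489 and 22.5 CPM, and the Wnt pathway receptor Lgr5, a marker of some supporting cells, had 97.2 and 7.06 CPM. These cells were chosen by Atoh1 detection and by the absence of gate markers, and the values are descriptions of 1 library each.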
